A study of Mus musculus with 13 samples.

Results

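The genes of the elastic fiber and its microfibrils were followed through senescence of mouse embryonic fibroblasts (MEFs) and through treatment of the senescent cells with Fucoidan-FV, a sulfated polysaccharide from the brown alga Fucus vesiculosus. The set comprised 10 genes of the 57010 in the count files, chosen by name: elastin (Eln), the fibrillins Fbn1 and Fbn2, the fibulins Fbln1, Fbln2, Fbln5, Efemp1 (fibulin-3) and Efemp2 (fibulin-4), and the microfibril-associated glycoproteins Mfap2 and Mfap5. The choice was made with earlier results of these data known, which limits comparisons of the set with all genes. Symbols were matched to gene identifiers through the GRCm39 annotation, and all 10 passed the filter on low counts that kept 15034 genes. RNA-Seq covered 4 groups of wild-type (WT) MEFs, each from mice 4, 5 and 6: untreated non-senescent cells (control), untreated senescent cells, and senescent cells given Fucoidan-FV at 100 µg/mL or at 300 µg/mL. Per the methods of the study, all 3 senescent groups had been exposed to the topoisomerase inhibitor etoposide (2 µM, 24 h) and kept for 5 more days, and RNA was extracted after 12 h of Fucoidan-FV. The cultures came from whole mid-gestation embryos without viscera, lung and heart, so they hold fibroblasts of many tissues, and the labels name no strain and shorten the senescent state as Eo in the untreated group and Eto in the treated groups. Control mouse 5 has a pair of libraries, 5(1) and 5(2), whose counts were summed.

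Elastic fibers give skin, vessels and lung their recoil. Fibrillins polymerise into microfibrils, the fibulins bring tropoelastin (the soluble monomer encoded by Eln) onto that scaffold, and lysyl oxidases cross-link it into insoluble elastin. Most elastin is laid down before and shortly after birth, Fbn2 is the fibrillin of embryonic tissue, and Fbn1 is the main fibrillin of the adult.

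Library totals ran from 22782536 to 31278750 counts. Levels are given as CPM, read counts relative to library size with TMM scaling between libraries, listed for mice 4, 5 and 6 in that order and as mean ± SD (n = 3), and values of different genes were compared only in TPM, a transcript abundance that accounts for length. Differences are log2 fold changes with their standard error (SE) from edgeR's quasi-likelihood test, with Benjamini-Hochberg adjustment over the 15034 genes. A gene passed with an adjusted p under 0.05 and was a DEG if its absolute log2 fold change was also over 1. The summed CPM of 9 fibroblast markers lay between 10596 and 16509 in all samples and was carried by Vim and the collagens Col1a1, Col1a2 and Col3a1. Of the others, Pdgfrb was at 271 to 777 CPM, Thy1 at 165 to 516 and Pdgfra at 2.07 to 25.9 over all samples. Lum was at 0 to 0.0982 CPM in control MEFs, 0.388 to 0.863 in untreated senescent MEFs and 1.12 to 9.58 with treatment. Dcn was at 0.726 to 1.57, 12.7 to 22.9 and 37.5 to 168 CPM in the same order. Of the 9 markers, 2 passed as higher and 1 as lower in senescent against control MEFs (6.11% and 5.63% of all genes tested). At 100 µg/mL against untreated senescent MEFs 3 passed as higher and 1 as lower (1.14% and 2.89%). At 300 µg/mL 1 passed as higher (0.778%). The part of these markers in the results was not tested. In bulk RNA, fewer cells of a type and less RNA per cell cannot be told apart.

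Between untreated senescent and control MEFs, Efemp1 and Mfap5 were higher and Fbn1 and Fbln1 lower, while Eln, Fbn2, Fbln2, Fbln5, Efemp2 and Mfap2 did not pass. These 4 of 10 genes compare with 11.7% of all genes tested that passed, 6.11% as higher and 5.63% as lower. Of the 4, Efemp1, Fbn1 and Fbln1 were DEGs, against a background of 8.42%. The groups did not overlap in 5 of the 10 genes, and they did not overlap in 27.1% of all genes. The median log2 fold change was 0.27 over the 10 genes and 0.07 over all genes.

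With Fucoidan-FV, Eln and Fbn2 rose at both doses, and no gene of the set fell. At 100 µg/mL these 2 of 10 genes were DEGs, against 1.1% of all genes tested that were DEGs in the same direction (4.02% passed in all and 1.14% as higher). The same 2 were DEGs at 300 µg/mL, against 0.752% in that direction (1.9% passed in all and 0.778% as higher). The treated and untreated senescent groups did not overlap in 5 genes at each dose, where 26.2% of all genes did not overlap at 100 µg/mL and 19.6% at 300 µg/mL. The median log2 fold change of the 10 genes was 0.70 at 100 µg/mL and 0.77 at 300 µg/mL, beside −0.02 and 0.00026 over all genes. Both comparisons use the same untreated senescent samples, so they are not independent of each other.

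**Figure D1:**
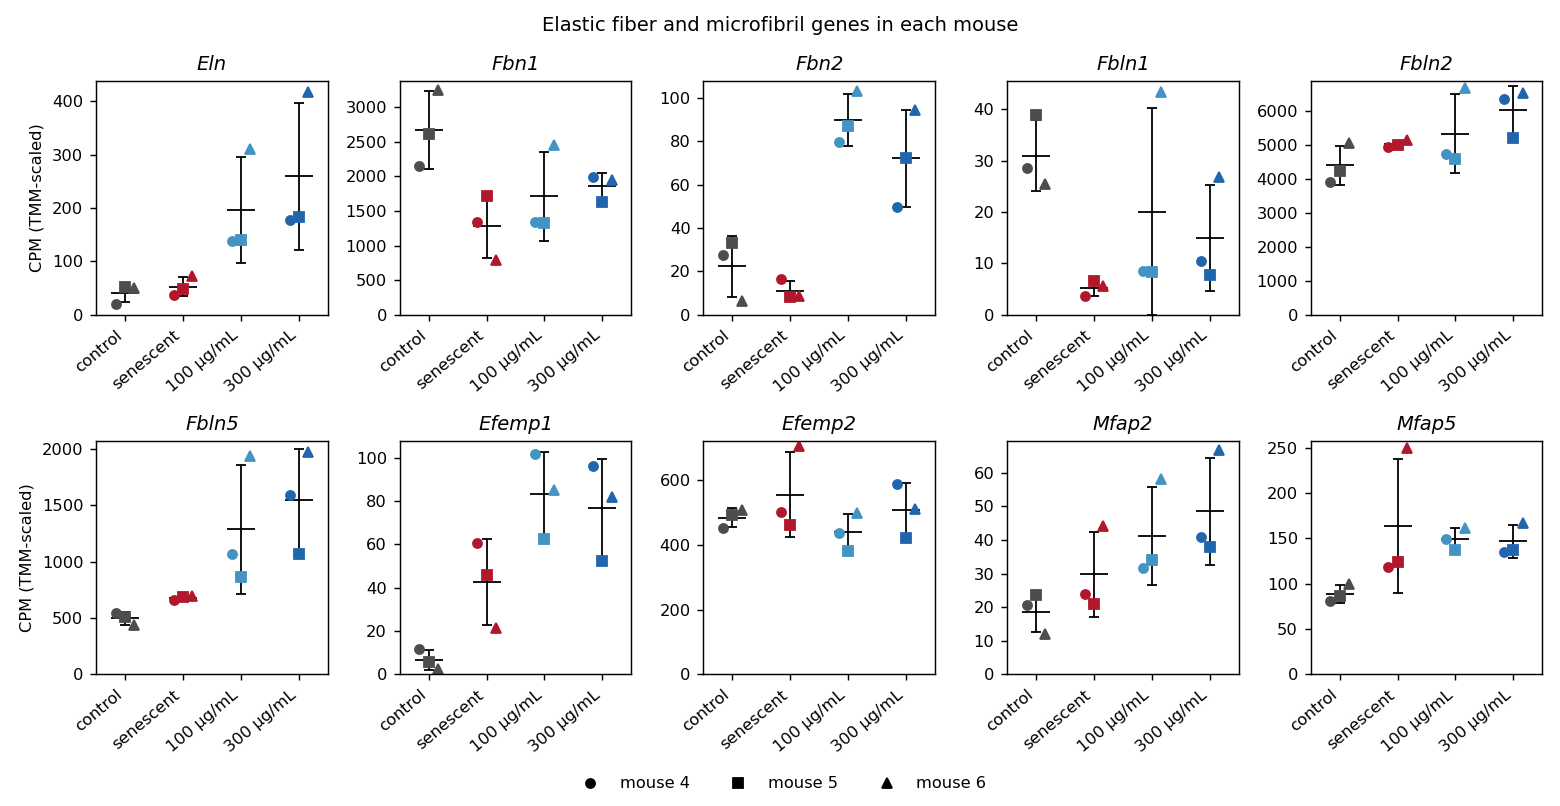
CPM scaled by TMM factors (y axis, linear, from 0) of each of the 10 genes by group, from control to 300 µg/mL Fucoidan-FV; symbols mark mice 4, 5 and 6, long bars the mean and whiskers ± SD (n = 3). Eln and Fbn2 lie higher in all 6 treated samples than in any untreated senescent sample, and mouse 6 is the highest treated sample for Eln, Fbn2, Fbln1, Fbln2, Fbln5, Mfap2 and Mfap5 at 300 µg/mL.

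**Figure D2:**
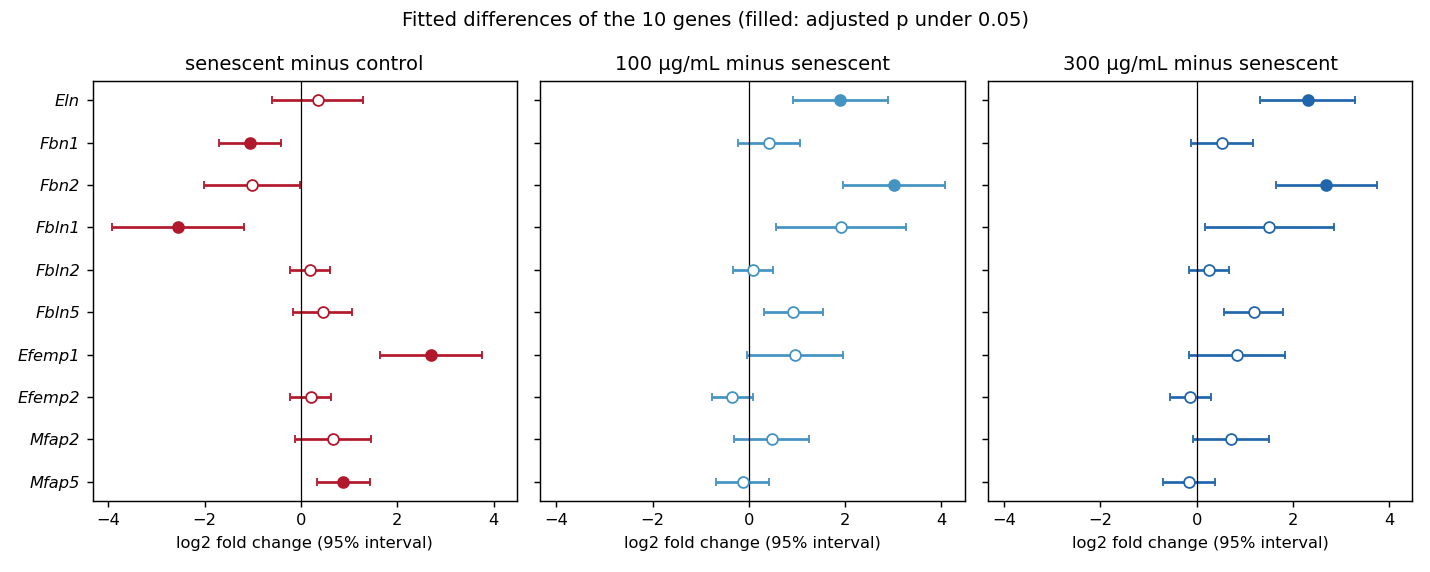
Log2 fold changes (x axis) of the 10 genes from the edgeR fit with 95% intervals, for untreated senescent minus control and for each dose minus untreated senescent MEFs; filled points have an adjusted p under 0.05. Filled points are Fbn1, Fbln1, Efemp1 and Mfap5 in the first panel, and Eln and Fbn2 in the other panels.

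To show the sequence before the genes that were DEGs between senescent and control MEFs or between either dose and untreated senescent MEFs, 200 bases upstream of the start of the Ensembl canonical transcript were read from GRCm39, in the direction of transcription; none is shown for Fbn2. Capitals mark matches to motifs.
Eln: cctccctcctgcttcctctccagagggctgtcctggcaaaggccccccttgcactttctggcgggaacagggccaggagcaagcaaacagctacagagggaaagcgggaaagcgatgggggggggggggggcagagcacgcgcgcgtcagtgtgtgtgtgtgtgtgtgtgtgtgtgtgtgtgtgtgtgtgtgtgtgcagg
Fbn1: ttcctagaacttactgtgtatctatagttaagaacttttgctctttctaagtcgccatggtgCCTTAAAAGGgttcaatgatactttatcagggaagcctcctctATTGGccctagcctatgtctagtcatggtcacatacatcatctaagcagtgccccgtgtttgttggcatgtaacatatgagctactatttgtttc
Fbln1: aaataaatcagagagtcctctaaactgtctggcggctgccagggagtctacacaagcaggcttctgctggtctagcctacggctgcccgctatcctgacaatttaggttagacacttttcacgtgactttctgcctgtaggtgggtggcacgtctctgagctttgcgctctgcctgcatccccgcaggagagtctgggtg
Efemp1: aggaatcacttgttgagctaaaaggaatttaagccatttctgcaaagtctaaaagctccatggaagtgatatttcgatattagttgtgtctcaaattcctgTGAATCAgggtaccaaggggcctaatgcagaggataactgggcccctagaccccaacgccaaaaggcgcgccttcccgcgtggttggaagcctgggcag
The Eln window lies at chr5:134776323-134776522 (minus strand, 63% G or C), the Fbn1 window at chr2:125349914-125350113 (minus strand, 41%), the Fbln1 window at chr15:85089950-85090149 (plus strand, 54.5%) and the Efemp1 window at chr11:28802950-28803149 (plus strand, 48.5%). Both strands were searched for 6 motifs, and the share of 21770 windows of the same length before protein-coding genes that hold each one is given beside it. The GC box, searched as GGGCGG, was in 34.8% of them. Of the other core promoter elements, the TATA box (searched as TATAAA) was in 9.57% and the CCAAT box, searched by those letters, in 32.3%. An AP-1 site was searched as TGANTCA and was in 4.93% of the windows. For TEAD factors the letters were GGAATG, in 9.48%, and the CArG box of serum response factor was in 1.08%. The Fbn1 window holds a CArG box at −138 to −129 and, on the opposite strand, a CCAAT box at −95 to −91, counted from the start of the transcript. In the Efemp1 window the match is an AP-1 site at −99 to −93, and the Eln and Fbln1 windows hold none of the 6 motifs. The Fbn2 window had a CCAAT box and, on the opposite strand, a GC box.

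Eln (ENSMUSG00000029675, GRCm39 chr5:134731445-134776322, minus strand) encodes tropoelastin. Its CPM was 20.8, 52.5 and 50.8 in control MEFs (41.4 ± 17.9) and 36.6, 49.3 and 71.9 in untreated senescent MEFs (52.6 ± 17.9). These groups overlapped and differed by 0.34 on the log2 scale (SE 0.44, adjusted p = 0.701). With 100 µg/mL Fucoidan-FV it was 139, 141 and 311 (197 ± 98.8), and with 300 µg/mL 177, 183 and 418 (259 ± 138). All 6 treated samples were above all 6 untreated ones, and in both treated groups mouse 6 stood well above mice 4 and 5. Eln was 3.74-fold higher at 100 µg/mL (log2 1.90, SE 0.45, adjusted p = 0.0378) and 4.93-fold higher at 300 µg/mL (log2 2.30, SE 0.46, adjusted p = 0.0243) than in untreated senescent MEFs, higher in 3 of 3 mice each time. Against control MEFs the log2 fold change was 2.25 at 100 µg/mL (adjusted p = 0.0029) and 2.65 at 300 µg/mL (adjusted p = 0.0012).

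The direction of Eln was the same under all 18 alternatives at each dose, but its call depended on single libraries. A refit to the authors' own table, which holds identical counts, is among the 18. At 100 µg/mL it did not pass without mouse 6 of the treated group (log2 1.41, adjusted p = 0.113), without treated mouse 4 (0.0621) or 5 (0.0626), or without senescent mouse 4 (0.0734) or 5 (0.0816), nor with control library 5(2) alone for control mouse 5 (0.0607). At 300 µg/mL it did not pass without treated mouse 6 (log2 1.77, adjusted p = 0.129), senescent mouse 4 (0.0602) or senescent mouse 5 (0.0622). Both libraries of control mouse 5 differed in Eln as well, with 30.1 CPM (unscaled) in 5(1) and 71.8 in 5(2), a ratio of 2.39.

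**Figure D3:**
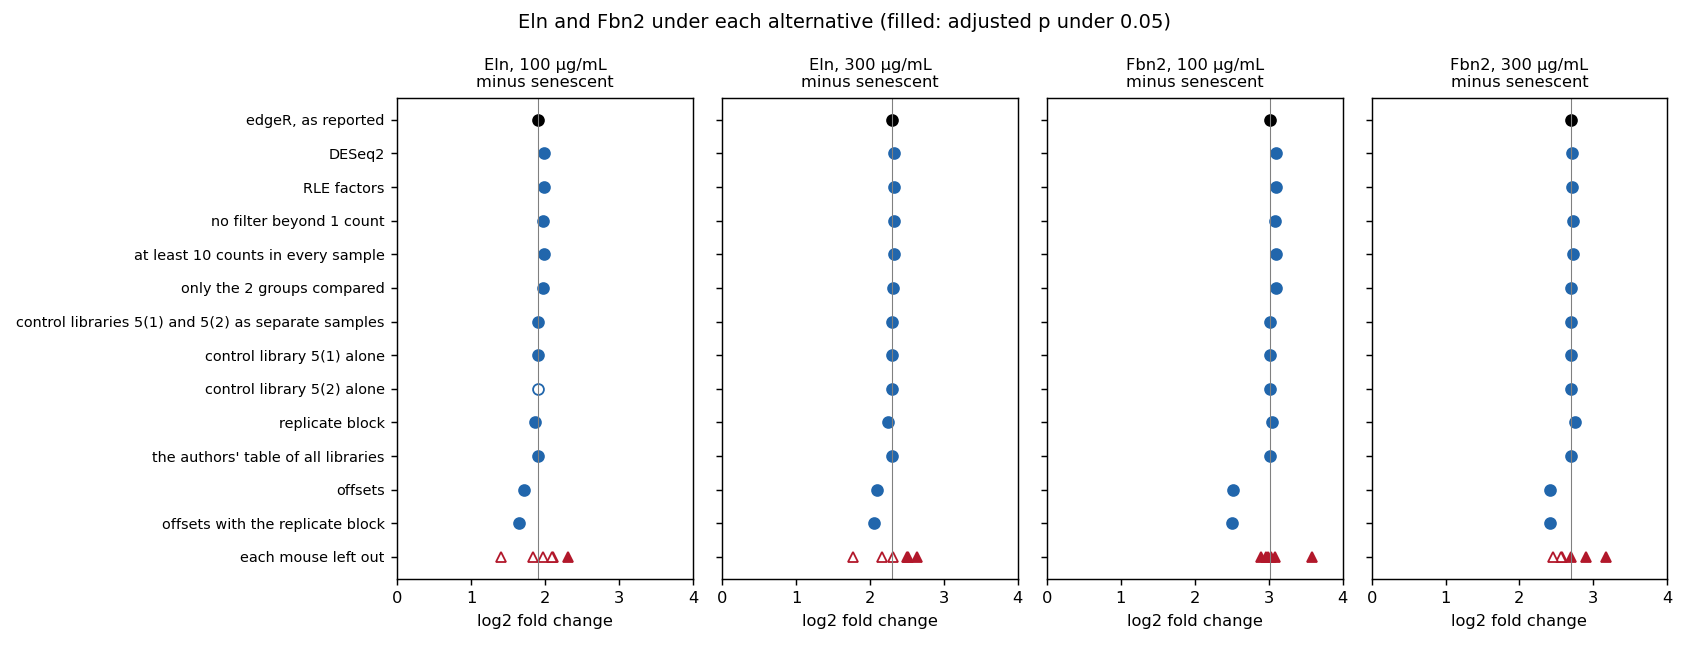
Log2 fold change (x axis) of Eln and Fbn2 at each dose of Fucoidan-FV against untreated senescent MEFs under each way of processing (rows); the vertical line marks the reported value, filled symbols have an adjusted p under 0.05, and triangles leave out 1 mouse each. All values lie above 1, and the open symbols are mostly those that leave out a mouse.

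Fbn2 (ENSMUSG00000024598, chr18:58141695-58343645, minus strand) had the largest log2 fold changes of the set under treatment. Its CPM was 27.7, 33.1 and 6.53 in control MEFs (22.5 ± 14.1), with mouse 6 far below the others, and 16.5, 8.28 and 8.63 in untreated senescent MEFs (11.1 ± 4.64). Senescent and control samples overlapped (log2 −1.01, SE 0.47, adjusted p = 0.193), and Fbn2 passed as lower without control mouse 6 (log2 −1.43, adjusted p = 0.0188) and with no filter beyond 1 count (adjusted p = 0.0134). With 100 µg/mL Fucoidan-FV its CPM was 79.8, 87.2 and 103 (90.0 ± 11.9), and with 300 µg/mL 49.9, 72.2 and 94.4 (72.2 ± 22.2). Every treated sample was above every untreated one with the libraries of control mouse 5 summed. Control library 5(2) alone had 51.7 CPM (unscaled), beside the 49.9 of mouse 4 at 300 µg/mL. Fbn2 was 8.07-fold higher at 100 µg/mL (log2 3.01, SE 0.50, adjusted p = 0.00719) and 6.47-fold higher at 300 µg/mL (log2 2.69, SE 0.49, adjusted p = 0.0146), in 3 of 3 mice each.

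At 100 µg/mL Fbn2 passed under all 18 alternatives, with a highest adjusted p of 0.0345. At 300 µg/mL it did not pass without treated mouse 6 (0.0725), senescent mouse 6 (0.0606) or senescent mouse 5 (0.0582). Against control MEFs it was higher at 100 µg/mL (log2 2.00, adjusted p = 0.0074) and at 300 µg/mL (log2 1.68, adjusted p = 0.0191), where the call was lost with control library 5(2) alone (log2 1.299, adjusted p = 0.104) and without treated mouse 6 (0.0754).

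Fbn2 and Eln are the members whose sequence is most often found in only a single annotated transcript, 81.0% of exonic bases for Fbn2 and 57.0% for Eln. Fbln1 was close behind Eln at 53.8%. The libraries differed in their counts on genes made up mostly of such sequence. Over 1322 genes with over 95% such sequence, the median log2 deviation from the mean of all libraries was lowest in control mouse 6 (−1.23) and highest in mouse 5 at 100 µg/mL (1.05). It was −1.01 in control library 5(1) and 0.65 in 5(2), and Fbn2 in the same libraries was 13.8 and 51.7 CPM (unscaled), a ratio of 3.76. The senescent libraries lay at 0.35, 0.18 and −0.84 for mice 6, 4 and 5, those at 100 µg/mL at −0.23, 0.97 and 1.05, and those at 300 µg/mL at 0.14, −0.91 and 0.50. With offsets for this share, length and GC content, Fbn2 kept log2 fold changes of 2.52 at 100 µg/mL (adjusted p = 0.0021) and 2.42 at 300 µg/mL. Eln also passed at both doses with the offsets. Within mice 4, 5 and 6, Fbn2 was higher than in untreated senescent MEFs by 2.27, 3.38 and 3.56 on the log2 scale at 100 µg/mL and by 1.59, 3.11 and 3.44 at 300 µg/mL. The treated library lay above the senescent one on this measure in mouse 5 at both doses and in mouse 4 at 100 µg/mL. It lay below the senescent one in mouse 6 at both doses and, by more, in mouse 4 at 300 µg/mL. The smallest of the 6 Fbn2 differences was that of mouse 4 at 300 µg/mL. The part of this measure in the Fbn2 and Eln results beyond the offsets was not tested.

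Fbn1 (ENSMUSG00000027204, chr2:125142514-125349913, minus strand) encodes the fibrillin whose mutations cause Marfan syndrome. Its CPM was 2143, 2608 and 3253 in control MEFs (2668 ± 557) and 1346, 1713 and 795 in untreated senescent MEFs (1285 ± 462). All senescent samples were below all control samples, a 2.08-fold fall (log2 −1.05, SE 0.30, adjusted p = 0.0368) in 3 of 3 mice. The call was lost with the mouse as a replicate block (log2 −1.02, adjusted p = 0.0711), with only both groups compared in the fit (0.0949), and without control mouse 6 (0.0774), control mouse 5 (0.0562) or senescent mouse 4 (0.0571). With Fucoidan-FV it was 1346, 1329 and 2456 at 100 µg/mL (1710.3 ± 646) and 1989, 1624 and 1948 at 300 µg/mL (1853 ± 199.8). Both treated groups overlapped the untreated senescent one, and the log2 fold changes of 0.41 (adjusted p = 0.488) and 0.53 (adjusted p = 0.442) did not pass. Of the exonic bases of Fbn1, 20.1% are shared with Gm9913 on the opposite strand, and whether counting used strand is not given in the sources used here, so reads there cannot be assigned to either gene with certainty.

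The balance of the fibrillins was compared as the share of Fbn2 in the summed TPM of Fbn1 and Fbn2. In control MEFs this share was 2.09%, 2.43% and 0.40% (mean 1.64%), and in untreated senescent MEFs 2.26%, 1.45% and 1.63% (mean 1.78%). It was 9.77%, 11.1% and 9.02% at 100 µg/mL (mean 9.96% ± 1.05) and 7.17%, 8.79% and 9.68% at 300 µg/mL (mean 8.55% ± 1.27). All 6 treated samples lay above all 6 untreated ones, and Fbn1 remained the more abundant fibrillin in each sample. The log2 ratio of Fbn2 to Fbn1 was higher by 2.63 at 100 µg/mL and by 2.39 at 300 µg/mL than in untreated senescent MEFs, each with p = 0.1 in an exact two-sided permutation test, the smallest p that 3 samples against 3 allow (0.15 adjusted over 6 tests). Between senescent and control MEFs it differed by 0.46 (exact permutation p = 0.9), and this value was −0.38 without control mouse 6.

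**Figure D4:**
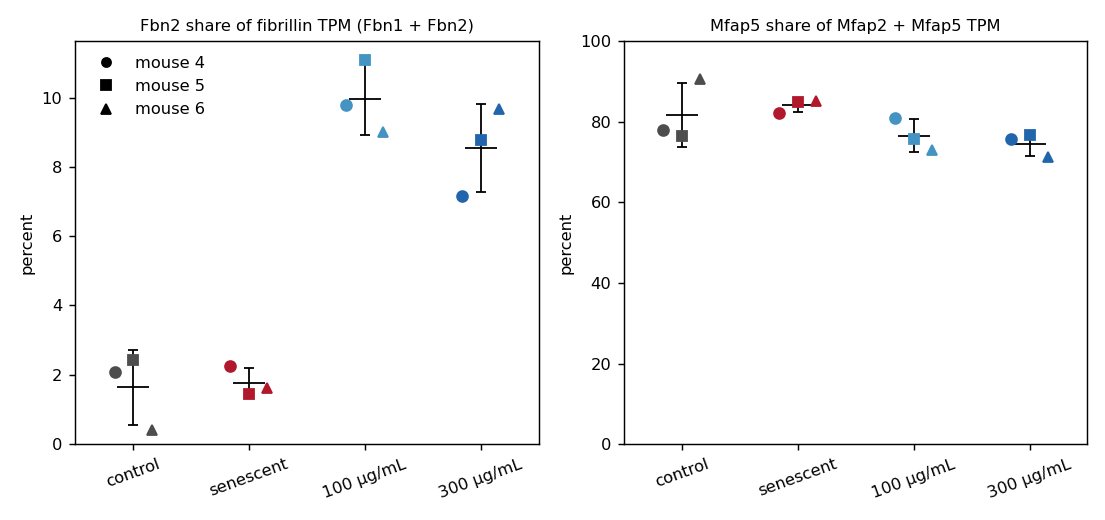
Share of Fbn2 in the TPM of both fibrillins (left, percent) and of Mfap5 in the TPM of Mfap2 and Mfap5 (right, percent) in each group; symbols mark mice 4, 5 and 6, long bars the mean and whiskers ± SD (n = 3). The Fbn2 share is at most 2.43% in untreated samples and at least 7.17% in treated ones, and the Mfap5 share of every treated sample is below that of every untreated senescent sample.

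Mfap2 (ENSMUSG00000060572, chr4:140737729-140743295, plus strand) and Mfap5 (ENSMUSG00000030116, chr6:122470878-122508875, plus strand) encode small glycoproteins that bind fibrillin along the microfibril. Mfap5 CPM was 80.5, 86.1 and 99.8 in control MEFs (88.8 ± 9.94) and 118, 124 and 249 in untreated senescent MEFs (164 ± 74.1), where mouse 6 was far above the others. It was 1.84-fold higher in senescent MEFs (log2 0.88, SE 0.25, adjusted p = 0.0388), in 3 of 3 mice. With a mouse left out, this log2 fold change ranged from 0.45 to 1.05. The call was lost without control mouse 4 (0.122) or control mouse 5 (0.107), with only both groups in the fit (0.152) and with control library 5(2) alone (0.0511). With treatment Mfap5 was 149, 137 and 162 at 100 µg/mL and 135, 137 and 167 at 300 µg/mL. These values overlapped the untreated senescent ones, with log2 fold changes of −0.13 and −0.16 (adjusted p = 0.831 and 0.842) that turned positive without senescent mouse 6 (0.45 and 0.33).

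Mfap2 was the lower-expressed of the pair in TPM in every group. Its CPM was 20.6, 23.6 and 11.9 in control and 23.999, 21.1 and 44.2 in untreated senescent MEFs (log2 0.67, SE 0.37, adjusted p = 0.284). It was 31.6, 34.1 and 58.1 at 100 µg/mL and 40.8, 38.1 and 66.9 at 300 µg/mL, in each mouse above the senescent value of the same number. Neither dose passed against untreated senescent MEFs (log2 0.47 and 0.71, adjusted p = 0.521 and 0.395). Against control MEFs Mfap2 passed as higher at 100 µg/mL (log2 1.14, adjusted p = 0.0358) and at 300 µg/mL (log2 1.38, adjusted p = 0.0159). The first of these calls was lost with the replicate block (0.0566) and without control mouse 6 (0.0585), treated mouse 6 (0.148) or treated mouse 5 (0.0532), and the other without treated mouse 6 (0.0822). The share of Mfap5 in the TPM of the pair averaged 81.7% in control, 84.1% in senescent, 76.6% at 100 µg/mL and 74.6% at 300 µg/mL. The log2 ratio of Mfap5 to Mfap2 in treated minus senescent MEFs was −0.69 at 100 µg/mL and −0.85 at 300 µg/mL, with no overlap and an exact permutation p = 0.1 for each dose (0.15 adjusted over 6 tests).

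Of the fibulins that bind tropoelastin, Fbln5 (ENSMUSG00000021186, chr12:101712556-101785429, minus strand) links it to cell-surface integrins and to microfibrils. Fbln5 CPM was 549, 512 and 434 in control MEFs (498 ± 58.7) and 659.7, 683 and 696 in untreated senescent MEFs (679.6 ± 18.3), which did not overlap but did not pass (log2 0.45, SE 0.28, adjusted p = 0.358). It was 1066, 859 and 1934 at 100 µg/mL (1287 ± 570.4) and 1589.7, 1069.5 and 1969.9 at 300 µg/mL (1543 ± 452). Every treated sample was above every untreated senescent sample, with mouse 6 the highest at both doses. Fbln5 was higher by 0.92 on the log2 scale at 100 µg/mL (SE 0.28, adjusted p = 0.0851), which missed the threshold, as did the 1.18 at 300 µg/mL (SE 0.28, adjusted p = 0.0531). Fbln5 at 300 µg/mL passed with DESeq2 (adjusted p = 0.00297), with RLE factors (0.0389), with at least 10 counts in every sample (0.0321), with no filter beyond 1 count and without treated mouse 5 (0.0495), and at 100 µg/mL with DESeq2 (0.0167) and with no filter beyond 1 count. Against control MEFs it was higher at both doses (log2 1.37 and 1.63, adjusted p = 0.0033 and 0.0012), in all 18 alternatives.

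Efemp1 (ENSMUSG00000020467, chr11:28803150-28876825, plus strand) encodes fibulin-3, known for a mutation that causes an inherited macular dystrophy. Its CPM was 11.6, 5.52 and 2.63 in control MEFs (6.58 ± 4.58) and 60.9, 46.0 and 21.5 in untreated senescent MEFs (42.8 ± 19.9). Mouse 4 was highest and mouse 6 lowest in both groups, which did not overlap. Efemp1 was 6.50-fold higher in senescent MEFs (log2 2.701, SE 0.49, adjusted p = 0.0033) in 3 of 3 mice, and it passed under all 18 alternatives. With treatment it was 102, 62.3 and 85.1 at 100 µg/mL (83.1 ± 19.8) and 96.4, 52.2 and 81.9 at 300 µg/mL (76.8 ± 22.5). The differences from untreated senescent MEFs (log2 0.96 and 0.84, adjusted p = 0.271 and 0.427) did not pass. Against control MEFs Efemp1 had the largest log2 fold changes of the set, 3.66 at 100 µg/mL (adjusted p = 0.000234) and 3.54 at 300 µg/mL (adjusted p = 0.000295).

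Efemp2 (ENSMUSG00000024909, chr19:5523975-5532545, plus strand) encodes fibulin-4, which binds lysyl oxidase and is required for elastic fiber assembly. Its CPM was 451, 491 and 509.5 in control, 500.4, 461 and 706 in untreated senescent, 437, 382 and 497 at 100 µg/mL and 589.5, 421 and 511 at 300 µg/mL. All groups overlapped, and no comparison passed. The 95% interval of its difference from untreated senescent MEFs was −0.77 to 0.08 on the log2 scale at 100 µg/mL and −0.56 to 0.29 at 300 µg/mL. Efemp2 shares 4.57% of its exonic bases with Mus81 on the opposite strand.

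Fbln1 (ENSMUSG00000006369, chr15:85090150-85170737, plus strand) encodes a fibulin found within elastic fibers and basement membranes. Its CPM was 28.6, 38.8 and 25.6 in control MEFs (31.0 ± 6.94) and 3.64, 6.68 and 5.57 in untreated senescent MEFs (5.30 ± 1.54). The groups lay far apart, a 5.86-fold fall (log2 −2.55, SE 0.64, adjusted p = 0.0203) in 3 of 3 mice, lost only without control mouse 5 (0.0509) or senescent mouse 4 (0.0687) among the 18 alternatives. With treatment Fbln1 was 8.61, 8.25 and 43.4 at 100 µg/mL and 10.4, 7.82 and 26.9 at 300 µg/mL. All treated samples were above all untreated senescent samples, but the values of mice 4 and 5 were near the senescent range while that of mouse 6 was within or above the control range. Neither dose passed (log2 1.92, SE 0.63, adjusted p = 0.104, and log2 1.505, SE 0.62, adjusted p = 0.258). Without treated mouse 6 the log2 fold changes were 0.67 and 0.78, and at 100 µg/mL Fbln1 passed with DESeq2 (0.0175).

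Fbln2 (ENSMUSG00000064080, chr6:91189437-91249522, plus strand), a fibulin that binds Fbn1 and tropoelastin, had the highest TPM of the set. Its CPM was 3922, 4218 and 5049 in control and 4927, 5009 and 5136 in untreated senescent MEFs. It was 4723, 4598 and 6675 at 100 µg/mL and 6340.2, 5189.7 and 6513 at 300 µg/mL. Fbln2 passed in none of the 6 comparisons (against control MEFs it passed at both doses without control mouse 6, adjusted p = 0.0256 and 0.0128), and the log2 fold changes were 0.19 for senescent against control MEFs, 0.09 at 100 µg/mL and 0.26 at 300 µg/mL against untreated senescent MEFs (adjusted p = 0.606, 0.859 and 0.593).

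Per length, the genes spanned a wide range. Mean TPM over the 12 samples was 2242 for Fbln2, 582 for Efemp2, 563 for Fbln5, 289 for Mfap5, 259 for Fbn1, 80.9 for Efemp1, 79.2 for Mfap2, 72.8 for Eln, 16.1 for Fbn2 and 9.98 for Fbln1. Every Fbln2 sample was above every sample of the other genes, and below it each neighbour in this order overlapped the next between samples. Fbln2 was first in all 4 groups, Efemp2 was second in control and senescent MEFs, and Fbln5 was second in both treated groups. Fbln5 was 227 ± 41.6 TPM in control, 318 ± 36.3 in senescent, 827 ± 212 at 100 µg/mL and 879.8 ± 219 at 300 µg/mL. In the last places, Fbn2 was 4.91 ± 3.12 TPM in control, 2.99 ± 1.497 in senescent, 30.4 ± 4.85 at 100 µg/mL and 26.1 ± 4.84 at 300 µg/mL.

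**Figure D5:**
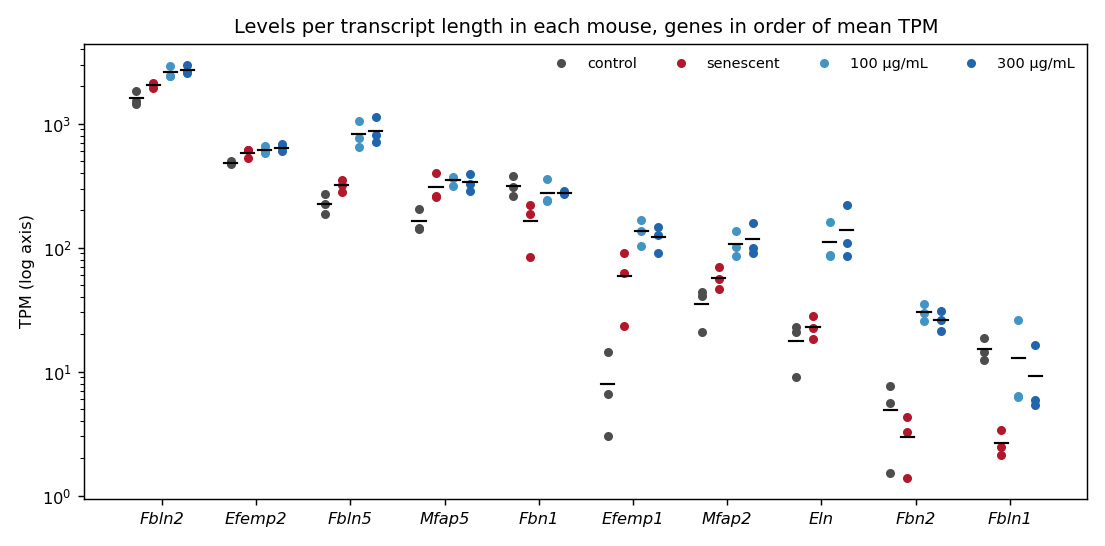
TPM (y axis, log scale) of each gene in each mouse, by group, with genes in order of mean TPM over the 12 samples and bars for the mean of 3 mice. Fbln2 lies at 1447 TPM or more in each sample, and the group means of Efemp1, Fbn2 and Eln differ by the largest ratios.

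No difference between the doses of 100 and 300 µg/mL was detected in the set. None of the 10 passed with edgeR (smallest adjusted p = 0.97), none had an unadjusted p under 0.05 and none passed with DESeq2, where 0.00665% of all genes (1 gene) passed with edgeR. The difference between the doses (300 minus 100 µg/mL) was 0.40 for Eln (95% interval −0.55 to 1.34), −0.32 for Fbn2 (−1.30 to 0.67), 0.26 for Fbln5 (−0.34 to 0.87) and −0.42 for Fbln1 (−1.72 to 0.88) on the log2 scale. The intervals of these 4 genes reach from a fall to a rise, so differences between the doses within these intervals remain possible. Against control MEFs, Eln, Fbn2, Fbln5, Efemp1, Mfap2 and Mfap5 passed as higher at 100 µg/mL and all of these but Mfap5 at 300 µg/mL, beside 12.2% and 12.4% of all genes that passed as higher (26.6% and 24.4% in all). Mfap5 there had adjusted p-values of 0.0428 at 100 µg/mL and 0.0535 at 300 µg/mL, and the first was lost under 8 of the 18 alternatives, including the offsets (0.193), with a highest adjusted p of 0.193. Fbn1 and Fbln1 had log2 fold changes of −0.64 and −0.63 at 100 µg/mL and −0.53 and −1.05 at 300 µg/mL against control MEFs, none of which passed. With the offsets Fbn1 passed as lower at both doses (log2 −1.05 and −0.97, adjusted p = 0.00186 and 0.00367), and without treated mouse 6 Fbn1 (log2 −1.001, adjusted p = 0.0291) and Fbln1 (log2 −1.88, adjusted p = 0.0196) passed as lower at 100 µg/mL.

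Other genes of elastic fiber biology were counted from lists of cross-linking enzymes, microfibril partners, latent TGF-β binding proteins, elastases, receptors and genes of cutis laxa. Of 62 listed genes 58 were tested, and 11 passed as higher and 7 as lower in untreated senescent against control MEFs, where 6.11% and 5.63% of all genes did. Against untreated senescent MEFs 3 passed as higher and 2 as lower at 100 µg/mL (1.14% and 2.89% of all genes), and 3 and 1 at 300 µg/mL (0.778% and 1.12%). The median log2 fold change of the 58 genes was 0.34, 0.11 and 0.16 in these 3 comparisons, beside 0.07, −0.02 and 0.00026 over all genes.

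The largest group, 22 tested genes of microfibril-associated and assembly proteins, held all the listed genes that rose with Fucoidan-FV, namely Vcan, Adamtsl3 and Fbln7. Vcan, the large proteoglycan versican that binds fibrillin and fibulins, was 144, 220 and 70.4 CPM in untreated senescent MEFs, 389.99, 344 and 1056 at 100 µg/mL and 566, 383 and 745 at 300 µg/mL. It rose by 2.04 (SE 0.46, adjusted p = 0.0283) and 1.96 (SE 0.46, adjusted p = 0.0455) on the log2 scale, and the replicate block ended both calls (0.066 and 0.0942). Without treated mouse 6 the adjusted p was 0.0938 at 100 µg/mL and 0.199 at 300 µg/mL, and without senescent mouse 4 it was 0.0512 and 0.0748. The call at 300 µg/mL also ended without senescent mouse 6 (0.0791), treated mouse 4 (0.105) or treated mouse 5 (0.0682), and with control library 5(2) alone (0.0548).

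Adamtsl3, a secreted ADAMTS-like protein without a protease domain, was 14.3, 9.74 and 2.21 CPM in untreated senescent MEFs, 57.7, 41.7 and 47.5 at 100 µg/mL and 55.3, 40.1 and 47.2 at 300 µg/mL. Its log2 fold changes were 2.48 (adjusted p = 0.0144) and 2.44 (adjusted p = 0.0224). The call at 100 µg/mL ended without senescent mouse 5 (0.0506) or treated mouse 4 (0.0567), and that at 300 µg/mL without senescent mouse 5 (0.064), treated mouse 6 (0.0811) or treated mouse 4 (0.0629). Fbln7, a further fibulin, was 2.84, 3.06 and 4.01 CPM in untreated senescent MEFs, 8.73, 7.95 and 16.7 at 100 µg/mL and 17.0, 10.6 and 17.8 at 300 µg/mL (log2 1.75 and 2.19, adjusted p = 0.0287 and 0.0146). It lost its call at 100 µg/mL without senescent mouse 5 (0.0524) or any treated mouse (0.0537 to 0.0983), and at 300 µg/mL without treated mouse 6 (0.0871). With only both groups in the fit, Vcan (0.0974 and 0.0625) and Adamtsl3 (0.0812 and 0.0967) did not pass at either dose, nor Fbln7 at 100 µg/mL (0.064). The list's median log2 fold change was 0.34 and 0.31 at 100 and 300 µg/mL, beside −0.02 and 0.00026 over all genes.

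Among 9 genes of the elastin receptor complex and integrins, Itga5 fell with treatment. Itga5, the fibronectin receptor subunit α5, was 1429, 1765 and 2164 CPM in untreated senescent MEFs, 417, 470.4 and 405 at 100 µg/mL and 506, 539 and 408 at 300 µg/mL. It fell by 2.05 (SE 0.21, adjusted p = 0.000441) and by 1.88 (SE 0.21, adjusted p = 0.000955) on the log2 scale and passed under all 18 alternatives. In senescent against control MEFs, Itgb5 (log2 1.14), the cathepsin A gene Ctsa of the elastin receptor complex (log2 1.08) and Itga8 (log2 2.33) were higher. Itgb5 and Ctsa passed under all 18 alternatives, and Itga8, whose senescent values were 77.5, 91.4 and 13.3 CPM against 13.8, 10.9 and 11.5 in control, lost its call without control mouse 5 (0.0598), senescent mouse 4 (0.0514) or senescent mouse 5 (0.0513).

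Of the 5 lysyl oxidase genes, Loxl4 fell in senescent MEFs from 91.1 ± 12.5 to 45.0 ± 16.4 CPM (log2 −1.02, adjusted p = 0.0208), a call lost without control mouse 6 (0.0576) or control mouse 5 (0.0536). Against untreated senescent MEFs none of the 5 passed as higher at either dose, and 1 passed as lower at 100 µg/mL and none at 300 µg/mL. Lox, named after its values were seen, had log2 fold changes of 0.56 (adjusted p = 0.334) and 0.75 (adjusted p = 0.249), and at 300 µg/mL all 3 mice were above the untreated senescent range. Against control MEFs Lox passed as higher at both doses (log2 1.10 and 1.29, adjusted p = 0.0168 and 0.00788). Of 9 tested elastases, Mmp9 fell in senescent MEFs from 3.23, 9.99 and 26.4 to 0.895, 2.11 and 1.26 CPM (log2 −3.22, adjusted p = 0.0161; lost without control mouse 6, 0.0875, or senescent mouse 4, 0.0793), 2 others passed as higher, and none passed with treatment. Among the 4 latent TGF-β binding proteins 1 passed as lower in senescent MEFs and none with treatment.

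Listed genes that passed without being DEGs, named after their values were seen, were Mmp2, Ctsl, Adamtsl5, Glb1, Atp6v1e1 and Rin2 as higher and Ltbp4, Furin and Itgb3 as lower in senescent MEFs, and Loxl3 as lower at 100 µg/mL.

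Of the genes of cutis laxa, a disorder of loose and inelastic skin, the proline synthesis genes Aldh18a1 (log2 −1.01, adjusted p = 0.00143, in all 18 alternatives) and Pycr1 (log2 −1.02, adjusted p = 0.0292) fell in senescent MEFs. The Pycr1 call was lost without control mouse 4 (0.103) or 5 (0.0741) and without senescent mouse 6 (0.056), 4 (0.0531) or 5 (0.0738). With only both groups in the fit, Pycr1 (0.08), Loxl4 (0.119) and Itga8 (0.064) did not pass. Adamtsl4, which binds microfibrils, rose from 27.1 ± 2.92 to 74.1 ± 7.95 CPM in senescent MEFs (log2 1.45, adjusted p = 0.00052, in all 18 alternatives). Adamts17, a metalloprotease gene of short stature syndromes, had 2 counts in the 3 control samples and 40 in the 3 senescent samples. Their ratio was 23.5, with a 95% counting interval of 6.10 to 201 from pooled counts, which leaves out the spread between mice. In the edgeR fit its adjusted p was 0.0146 (0.0525 without control mouse 4).

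Markers of other cell types that could be in an embryonic culture were summed beside these results. The 6 smooth muscle and contractile markers, all counted in every group, summed to 6384 to 10619 CPM in untreated senescent MEFs, 3704 to 5434 at 100 µg/mL and 4274 to 5318 at 300 µg/mL, with Myh11 at 155 to 360 in senescent and 233 to 397 in treated samples. The 5 endothelial markers summed to 1.37 to 1.90 in untreated senescent MEFs, 5.53 to 9.58 at 100 µg/mL and 3.82 to 7.86 at 300 µg/mL, mostly Tek in the treated samples, and Tie1 was at 0 in the senescent and the 300 µg/mL group. The 6 chondrocyte markers summed to 618 to 873 in control and 228 to 356 in senescent MEFs, with Matn1 at 0 in both. With treatment they summed to 125 to 240. These sums were mostly Col2a1, and Comp was higher in every treated sample than in any untreated senescent sample. The median log2 fold change of the 4 tested chondrocyte markers against untreated senescent MEFs was 0.53 at each dose. Of these 4, 1 passed as lower at 100 µg/mL. The part of the smooth muscle, endothelial and chondrocyte markers in the results on Eln, Fbn2, Fbn1 and Fbln1 was not tested. The 6 macrophage markers summed to 0.564 to 4.25 CPM in control, 2.81 to 12.8 in senescent, 6.23 to 12.8 at 100 µg/mL and 3.26 to 10.1 at 300 µg/mL, and the 5 epithelial markers to at most 2.24.

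The 5 tested genes most like Eln, by Pearson correlation of log2 CPM over the 12 samples, were Csdc2 (r = 0.97), Emilin1 (r = 0.97), Cpxm2 (r = 0.97), Serpinb9 (r = 0.96) and Arap1 (r = 0.96). Emilin1 encodes a glycoprotein at the interface of elastin and microfibrils. Within the set, Fbln5 came nearest to Eln (r = 0.90, rank 60 of all genes), then Mfap2 (r = 0.82), and Fbn1 was at −0.02. These correlations span groups and share libraries, so they describe these 12 samples alone.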

How the data were processed

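RNA-Seq of 13 libraries of WT MEFs was analysed. Per the labels and methods, stranded total RNA libraries were checked with FastQC 0.12.1, reads were trimmed with Trimmomatic, aligned to GRCm39 (Ensembl 109) with STAR 2.7.11b and counted with RSEM 1.3.1. The authors deposited expected counts per gene, without normalization, and beside them TPM normalized by RSEM for length and library size. A table of all libraries that the authors also deposited differed by 0 from the single files.

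Rounding turned expected counts into whole numbers, and control libraries 5(1) and 5(2) were summed (TPM were averaged). Of 57010 genes, 56310 matched the annotation, and filterByExpr (minimum count 10, minimum total 15) kept 15034. The fit used edgeR 4.0.16 in R 4.3.3 (TMM, quasi-likelihood, 1 fit over 4 groups, Benjamini-Hochberg adjustment). In simulated counts for 100 µg/mL against untreated senescent MEFs, 18 of 100 genes with an absolute log2 fold change of 1 and 77 of 100 with 2 passed, and 5 of 14428 unchanged genes. The simulated counts were drawn independently for each gene and sample. They lack the library differences in single-transcript sequence and any shared mouse effect, so error rates in the real libraries may differ. TPM ratios were tested by an exact permutation test. The methods give 3 biological replicates per group, and the mouse numbers in the labels were taken as the same mouse in each group. Over 18 same-numbered pairs, deviations from the group mean correlated with a median of −0.00612 (lowest −0.204, highest 0.425), and 8 pairs exceeded 0.1.

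The 10 genes, the lists and the tests were chosen with earlier results of these data known. Genes named beyond the 10 are the DEGs of each list, at most the 4 with the smallest p per list and comparison, and the 5 genes most correlated with Eln and with Fbn1 (the latter are not reported here). Alternatives were DESeq2 1.42.0, RLE factors, other filters, only both groups compared, either control 5 library, the replicate block, each mouse left out, and offsets for unique sequence, length and GC content. No protein sequence was used here.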

Additional observations from a re-analysis of the deposited data

How the results depend on the processing

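The mouse number as a replicate block, which the labels pair across groups, left 3 of the 10 genes passing between senescent and control MEFs (4 without it) and 2 at each dose against untreated senescent MEFs. Beyond Fbn1, Mfap2 and Vcan, whose calls it ended, and Mfap5 at 300 µg/mL against control MEFs, which it added (adjusted p = 0.0286), the block changed no other call among the 10 genes and the DEGs named from the lists. Alternatives are not given for listed genes that passed without being DEGs.

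For the values that moved, the cause was not tested, though leaving out a mouse also leaves fewer samples. For senescent against control MEFs, 2 genes passed with only both groups in the fit, and 1 to 4 with a mouse left out (1 to 4 DEGs), fewest without control mouse 5. At 100 µg/mL against untreated senescent MEFs, 4 passed with DESeq2, 5 with no filter beyond 1 count (4 DEGs), 1 with control library 5(2) alone (1 DEG) and 1 to 2 with a mouse left out (1 to 2 DEGs). The same counts at 300 µg/mL were 4 with no filter beyond 1 count (4 DEGs) and 0 to 3 with a mouse left out (0 to 3 DEGs), with 0 without senescent mouse 5 or treated mouse 6. Against control MEFs at 300 µg/mL, 3 to 7 passed (3 to 5 DEGs) with a mouse left out, fewest without treated mouse 6. With a mouse left out, the log2 ratio between senescent and control MEFs ranged from −0.38 to 0.94 for Fbn2 to Fbn1 and from −0.15 to 0.65 for Mfap5 to Mfap2 (−0.08 without control mouse 4). Over all genes, those passing numbered 1765 for senescent against control MEFs (2790 with DESeq2, 765 with only both groups in the fit), 605 at 100 µg/mL (1394, 170) and 286 at 300 µg/mL (985, 101) against untreated senescent MEFs.

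Directions turned only in results that had not passed. The offsets turned Fbln2 at 100 µg/mL against untreated senescent MEFs (−0.0647, and −0.0867 with the block) and against control MEFs (−0.00018 with the block), and Efemp2 at 300 µg/mL against control MEFs (−0.12 with and without it). They moved the median of all genes to −0.22 at 100 µg/mL and −0.13 at 300 µg/mL against untreated senescent MEFs. With a mouse left out, log2 fold changes between the doses ranged from −0.13 to 0.89 for Eln, −0.036 to 0.47 for Fbn1, −1.14 to 0.84 for Fbln1, −0.31 to 0.10 for Efemp1, −0.063 to 0.57 for Mfap2 and −0.13 to 0.036 for Mfap5. At 100 µg/mL against untreated senescent MEFs they ranged from −0.11 to 0.23 for Fbln2, −0.44 to 0.0075 for Efemp2 and −0.19 to 0.45 for Mfap5, and at 300 µg/mL from −0.25 to 0.12 for Efemp2 and −0.27 to 0.33 for Mfap5. Efemp2 ranged from −0.0025 to 0.32 for senescent against control MEFs, and against control MEFs from −0.25 to 0.057 at 100 µg/mL and −0.057 to 0.19 at 300 µg/mL.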
